A study of Mus musculus with 6 samples.

Results

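The genes described here are 9 genes of antigen presentation by MHC class II, chosen by their symbols alone: the classical chains H2-Aa, H2-Ab1 and H2-Eb1, the peptide-editing chains H2-DMa, H2-DMb1 and H2-Oa, the invariant chain Cd74, the protease Ctss and the transactivator Ciita. All 9 were among the 15643 genes of the deposited table, and all 9 passed the filter on low counts. Libraries 746, 748 and 749, labelled Aire -/-, were compared with libraries 745, 750 and 753, labelled Aire +/+. All came from medullary thymic epithelial cells of the mTEChi fraction, sorted from NOD mice aged 4.5 weeks. NOD is an inbred mouse strain prone to autoimmune diabetes, and Aire is the transcriptional regulator that lets these cells display proteins of other tissues. MARS-seq counts molecules of RNA at the 3′ ends of transcripts through unique molecular identifiers (UMIs). The labels give neither the deleted part of the Aire allele, nor the sort markers, nor whether a number stands for 1 animal, so p-values measure only the spread between these libraries, which may be technical.

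MHC class II molecules are pairs of an alpha and a beta chain that carry peptides to the cell surface for CD4 T cells. In the endoplasmic reticulum the invariant chain fills their groove. Lysosomal proteases, cathepsin S among them, trim it to a short fragment, which the editor H2-DM exchanges for other peptides while H2-O holds H2-DM back. CIITA, itself not a DNA-binding protein, joins factors bound at X and Y boxes of the promoters and switches the set on. In the thymus, class II on medullary epithelium presents self peptides that delete self-reactive CD4 T cells or turn them to the regulatory lineage. NOD mice display a single class II dimer, I-A of the H2g7 haplotype, made of the H2-Aa and H2-Ab1 products. They lack a functional partner chain for H2-Eb1. The name mTEChi usually means cells high in surface class II, and the part of the sort in the levels below was not tested.

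The promoters of the class II genes share sequence that the choice of the genes did not use. Windows from 250 bases before to 50 bases after the annotated start (RefSeq, GRCm38.p6) were matched for 6 of the 9 genes, 7 windows in all. Those of 4 class II genes that rose without Aire are printed with that of Ctss, which was not called. Capitals mark 3 motifs searched on both strands. GATTGG is the core of the Y box, CTGATTGG is a longer form that contains it, and AACTGATG covers part of the X box.
H2-Aa, chr17:34287774-34288073, minus strand: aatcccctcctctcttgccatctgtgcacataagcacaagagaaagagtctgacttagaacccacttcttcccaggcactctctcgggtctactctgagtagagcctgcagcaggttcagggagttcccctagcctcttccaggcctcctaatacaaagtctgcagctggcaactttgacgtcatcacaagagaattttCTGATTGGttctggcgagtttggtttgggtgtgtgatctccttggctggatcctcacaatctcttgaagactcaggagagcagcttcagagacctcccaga
H2-Eb1, chr17:34305617-34305916, plus strand: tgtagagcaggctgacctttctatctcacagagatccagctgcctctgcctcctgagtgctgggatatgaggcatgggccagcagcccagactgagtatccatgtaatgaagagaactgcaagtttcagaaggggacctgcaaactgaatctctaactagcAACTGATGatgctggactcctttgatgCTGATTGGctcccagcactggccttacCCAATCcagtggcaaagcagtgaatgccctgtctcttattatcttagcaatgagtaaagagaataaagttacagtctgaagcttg
H2-DMb1, chr17:34152941-34153240, plus strand: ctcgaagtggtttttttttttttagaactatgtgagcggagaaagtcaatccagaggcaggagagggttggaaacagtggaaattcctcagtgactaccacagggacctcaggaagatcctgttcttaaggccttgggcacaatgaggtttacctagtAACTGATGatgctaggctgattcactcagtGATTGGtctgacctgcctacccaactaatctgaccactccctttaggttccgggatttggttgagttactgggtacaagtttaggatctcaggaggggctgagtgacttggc
H2-Oa, chr17:34092129-34092428, plus strand: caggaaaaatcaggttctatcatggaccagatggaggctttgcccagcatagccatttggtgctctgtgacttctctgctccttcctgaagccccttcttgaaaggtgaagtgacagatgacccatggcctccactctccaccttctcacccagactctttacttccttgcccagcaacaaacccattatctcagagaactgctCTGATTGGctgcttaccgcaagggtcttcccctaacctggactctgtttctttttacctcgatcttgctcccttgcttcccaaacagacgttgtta
Ctss, chr3:95526536-95526835, plus strand: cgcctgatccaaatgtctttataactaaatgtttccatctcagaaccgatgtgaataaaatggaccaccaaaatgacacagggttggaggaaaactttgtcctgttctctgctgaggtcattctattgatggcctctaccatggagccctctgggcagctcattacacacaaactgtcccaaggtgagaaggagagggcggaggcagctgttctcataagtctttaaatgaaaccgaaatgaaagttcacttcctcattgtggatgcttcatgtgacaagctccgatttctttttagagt
The core GATTGG lay in a window of 5 of the 6 genes, H2-Aa, H2-Eb1, H2-DMb1, H2-Oa and H2-DMa, where 16.1% of all 32851 windows of that length hold it. On the forward strand its first base stood 44 bases before the start in H2-Oa, 49 in H2-Aa, 60 in H2-Eb1, 62 in H2-DMb1 and, in 1 of its 2 windows, 199 in H2-DMa. The longer CTGATTGG was present in 3 of these genes, H2-Aa, H2-Eb1 and H2-Oa, against 4.1% of all windows. AACTGATG was present in H2-Eb1 and H2-DMb1, with 21 and 22 bases between it and the next forward Y core, against 0.776% of all windows. These letters were chosen after the windows had been seen, so the matches only describe them. The Ctss window held none of the 3. Among the other tested class II pathway genes, GATTGG also lay in windows of H2-DMb2 and H2-Eb2, both called higher. It lay as well in windows of H2-Ob, Rfx5, Rfxank and Nfyc, none of them called. AACTGATG also lay in windows of H2-Eb2, called higher, and of Nfyc, not called, and CTGATTGG in that of H2-Eb2. Whether the boxes go with the changes was not tested.

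Depth was 1014581 to 1960802 UMIs per Aire -/- library and 2736932 to 2887321 UMIs per Aire +/+ library. Libraries of the same genotype were further apart than sampling noise (chi-square per degree of freedom 3.02 to 6.83). Aire itself, the targeted gene, was at 4938, 4499 and 5159 CPM (UMIs per 1000000, scaled by library) in the libraries labelled Aire -/- and at 2079, 2259 and 2467 CPM in those labelled Aire +/+. A 3′ tag outside the deleted part checks nothing about the genotype, so every direction here rests on the labels. Gapdh was nearly missing from 1 library of each genotype, at 28 UMIs in 746 (Aire -/-) and 90 in 753 (Aire +/+), against 2245 to 4166 in the other 4 libraries. Over the whole table edgeR tested 11956 genes and called 1027 higher (8.59%) and 1451 lower (12.1%) in Aire -/- cells. Fewer were called higher without 745 (632), without 753 (618) or without 746 and 753 together (651), and scaling by library totals gave 561 higher and 2083 lower.

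Transcripts of the class II pathway were more abundant without Aire in 8 of the 9 genes, by 1.47-fold to 2.61-fold, and none of the 9 had a negative log2 ratio. The share of all genes called higher in the same fit was 8.59%, and 12.1% were called lower. The Aire -/- libraries lay wholly above the Aire +/+ libraries for the same 8 genes, as they did for 16.3% of all tested genes, while 20.2% of tested genes lay wholly below. DESeq2 also called 8 of the 9 higher (5.3% of genes higher, 9.79% lower), and edgeR with library totals called 7 (4.69% higher, 17.4% lower). Of the 9 genes, 8 were lower in Aire +/+ cells at an adjusted p up to 0.05 in the authors' deposited table, as were 5.31% of all genes in it. The median log2 ratio of the 9, Aire -/- over Aire +/+, was 0.74, against -0.02 over all genes tested. Ctss, the exception, overlapped between the genotypes. In these bulk libraries, more cells of a type and more RNA per cell cannot be told apart.

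Together the 9 genes took 7.84%, 6.95% and 7.80% of all UMIs in the Aire -/- libraries 746, 748 and 749, against 4.55%, 4.87% and 5.07% in the Aire +/+ libraries 745, 750 and 753. The means were 7.53 ± 0.50% and 4.83 ± 0.26% (SD, n = 3 each). Cd74, H2-Ab1, H2-Aa and H2-Eb1 made up 97.0% of these UMIs in Aire -/- cells and 96.5% in Aire +/+ cells. By mean CPM over all libraries they ranked 1, 2, 3 and 5 among the genes of the table, so the class II chains and their escort were among the most abundant transcripts in these libraries.

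**Figure D1:**
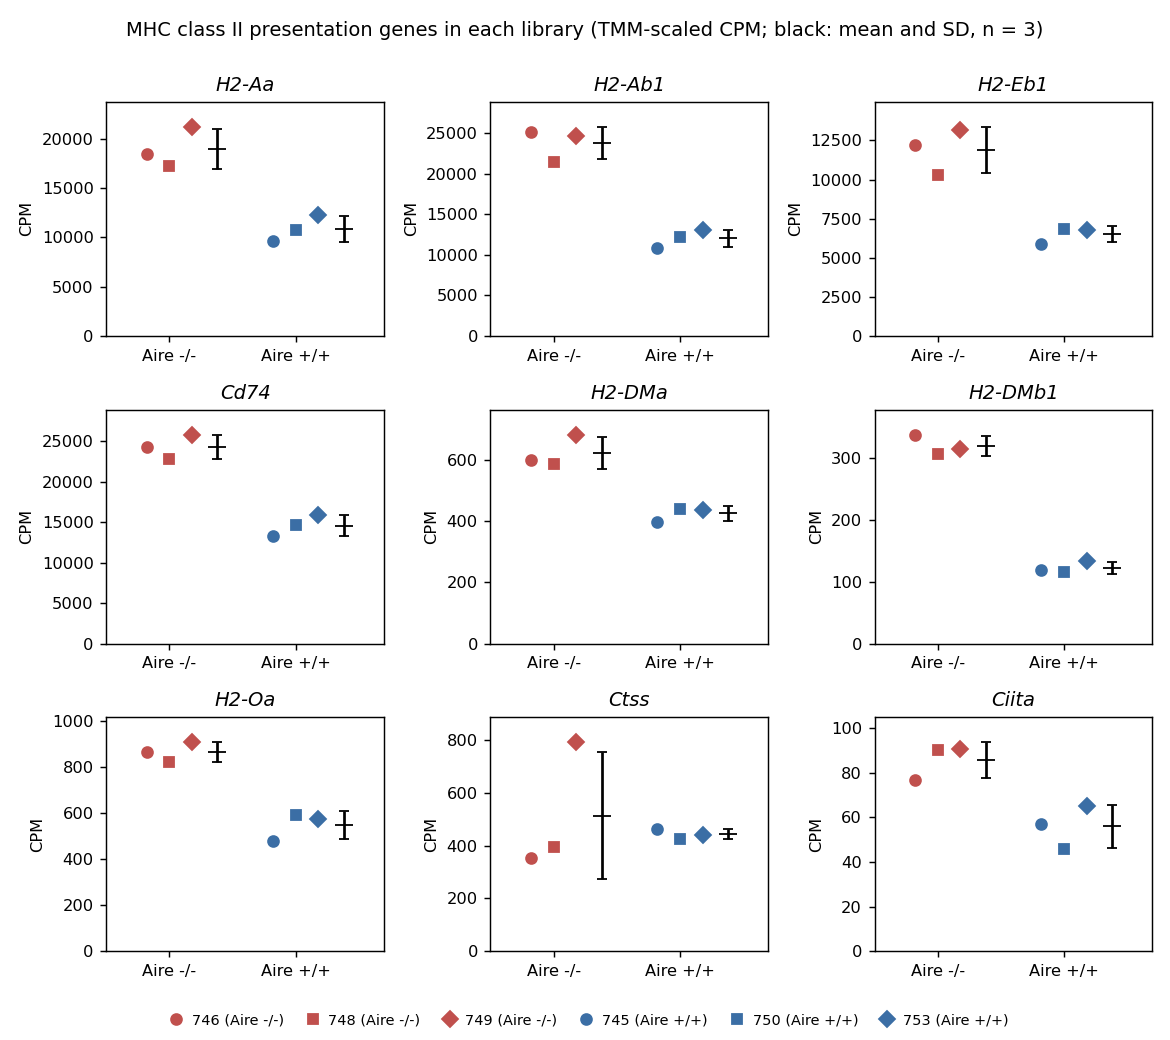
Each panel plots 1 gene, with the CPM of each library on the vertical axis, the Aire -/- libraries on the left and the Aire +/+ libraries on the right, and black bars for the mean and SD of 3 libraries. In all panels but that of Ctss the Aire -/- points lie above all Aire +/+ points, and the high Ctss point is library 749, at 791 CPM.

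H2-Ab1 encodes the beta chain of the I-A dimer. It was at 25122, 21471 and 24686 CPM in Aire -/- cells, against 10888, 12159 and 13004 CPM in Aire +/+ cells, in the library order given above. The lowest Aire -/- library was well above the highest Aire +/+ library. The log2 ratio was 0.98 ± 0.14 (SE; edgeR adjusted p = 0.000292), or 1.98-fold.

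H2-Aa encodes the alpha chain of the same dimer. It was at 18425, 17178 and 21183 CPM in Aire -/- cells, against 9621, 10719 and 12236 CPM in Aire +/+ cells, with no overlap. The log2 ratio was 0.80 ± 0.15 (SE; edgeR adjusted p = 0.00175). The quotient of H2-Ab1 to H2-Aa UMIs within a library, which needs no scaling, was 1.36, 1.25 and 1.17 in Aire -/- cells, against 1.13, 1.13 and 1.06 in Aire +/+ cells. The beta chain thus had more UMIs than the alpha chain in all 6 libraries. The quotient was higher in each Aire -/- library, a difference of 0.18 on the log2 scale (exact two-sided permutation p = 0.1, adjusted 0.16 over 8 ratios). Library 746 had the highest quotient, and without 746 and 753 the difference was 0.09.

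H2-Eb1, the beta chain of I-E, was at 12201, 10263 and 13182 CPM in Aire -/- cells, against 5903, 6846 and 6773 CPM in Aire +/+ cells. Its ranges did not overlap, although it has no functional partner chain in this strain. The log2 ratio was 0.87 ± 0.15 (SE; edgeR adjusted p = 0.000845), between those of the other classical chains. Reads of NOD transcripts were set against mm10, the genome of a strain with another class II haplotype, and what that does to these levels was not tested.

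Cd74, the invariant chain, had the highest mean CPM of the table, at 24294, 22795 and 25834 CPM in Aire -/- cells, against 13279, 14660 and 15845 CPM in Aire +/+ cells. It rose by a log2 ratio of 0.74 ± 0.14 (SE; edgeR adjusted p = 0.00196). Cd74 per UMI of H2-Aa and H2-Ab1, the chains it escorts, was 0.558, 0.590 and 0.563 in Aire -/- cells, against 0.647, 0.641 and 0.628 in Aire +/+ cells. Every Aire -/- library held less invariant chain per I-A chain than every Aire +/+ library, a difference of -0.16 on the log2 scale (exact two-sided permutation p = 0.1, adjusted 0.16 over 8 ratios). That p is the smallest that 3 libraries against 3 can give. Leaving out each library in turn kept this direction, between -0.19 and -0.15.

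Ctss, cathepsin S, cleaves the invariant chain in antigen-presenting cells. It was at 354, 396 and 791 CPM in Aire -/- cells, against 462, 424 and 442 CPM in Aire +/+ cells. Libraries 746 and 748 lay below all Aire +/+ libraries and 749 lay above them, so the SD was 241 CPM in Aire -/- cells and 19.1 CPM in Aire +/+ cells. The log2 ratio was 0.22 ± 0.24 (SE; edgeR adjusted p = 0.583) and was not called. Without 749 it was -0.23 (edgeR adjusted p = 0.239).

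Library 749 also held the most macrophage transcripts. The summed CPM of the 8 macrophage markers in the table (of 9 listed, none at 0 in any library) was 2462, 2385 and 4858 in 746, 748 and 749, against 2121 to 2702 in Aire +/+ cells. C1qa, a complement chain made by macrophages, was at 395, 388 and 1069 CPM in Aire -/- cells, against 550.4, 539 and 349 CPM in Aire +/+ cells. The part of these cells in the Ctss level was not tested. Among the other tested lysosomal proteases, Ctsz, a carboxypeptidase, was likewise highest in 749. It was at 400.5, 417 and 765 CPM in Aire -/- cells, against 580.2, 511 and 510.0 CPM in Aire +/+ cells. Ctsd, Ctsh and Lgmn were highest in 749 as well, at 693, 831 and 132 CPM there. Ctsb was highest in 748, at 9.22 CPM. Leaving out 749 kept 8 of the 9 class II genes called higher.

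The editor chains rose as well, to unequal degrees. H2-DMa, the alpha chain of H2-DM, was at 598, 588 and 683 CPM in Aire -/- cells, against 397, 441 and 437 CPM in Aire +/+ cells, a log2 ratio of 0.55 ± 0.13 (SE; edgeR adjusted p = 0.00729). H2-DMb1, one of its beta chains, was at 337, 306 and 314 CPM in Aire -/- cells, against 119, 115 and 133 CPM in Aire +/+ cells. This was the largest change of the 9 genes, a log2 ratio of 1.38 ± 0.13 (SE; edgeR adjusted p = 8.39e-06), or 2.61-fold. In the authors' deposited table H2-DMb1 was the only one of the 9 that the authors selected, with a log2 fold change of Aire +/+ over Aire -/- of -1.39.

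Relative to its partner, H2-DMb1 gained in each Aire -/- library. H2-DMb1 per H2-DMa was 0.564, 0.520 and 0.460 in Aire -/- cells, against 0.299, 0.261 and 0.304 in Aire +/+ cells, a difference of 0.84 on the log2 scale. H2-DMb1 per H2-DMb2, the other H2-DM beta chain, was 0.310, 0.390 and 0.343 in Aire -/- cells, against 0.203, 0.172 and 0.202 in Aire +/+ cells, a difference of 0.85. Neither pair of ranges overlapped, and both quotients were chosen after the values of the genes were seen, so they are given with no test.

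The 3′ ends of H2-DMb1 and H2-DMb2 match over 122 nt at 92.6% identity, so reads may have been divided between them and their separate values are uncertain. The sum of both genes was at 1427, 1091 and 1231 CPM in Aire -/- cells, against 703, 784 and 793 CPM in Aire +/+ cells. The means were 1250 ± 169 CPM and 760.1 ± 49.5 CPM (SD, n = 3 each), 1.64-fold apart. The sum therefore lay higher in every Aire -/- library, by less than H2-DMb1 alone.

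H2-Oa, the alpha chain of the inhibitor H2-O, was at 866, 822 and 909 CPM in Aire -/- cells, against 479.7, 592 and 576 CPM in Aire +/+ cells, a log2 ratio of 0.66 ± 0.13 (SE; edgeR adjusted p = 0.00313). Inhibitor to editor, H2-Oa per H2-DMa was 1.45, 1.40 and 1.33 in Aire -/- cells, against 1.21, 1.34 and 1.32 in Aire +/+ cells. These ranges overlapped (difference 0.11 on the log2 scale, exact two-sided permutation p = 0.2, adjusted 0.229 over 8 ratios). H2-Oa lies wholly within the span of the antisense gene BC051537, which is not analysed here. The strand setting of the counting is not given in the sources used, so reads from either strand cannot be told apart.

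**Figure D2:**
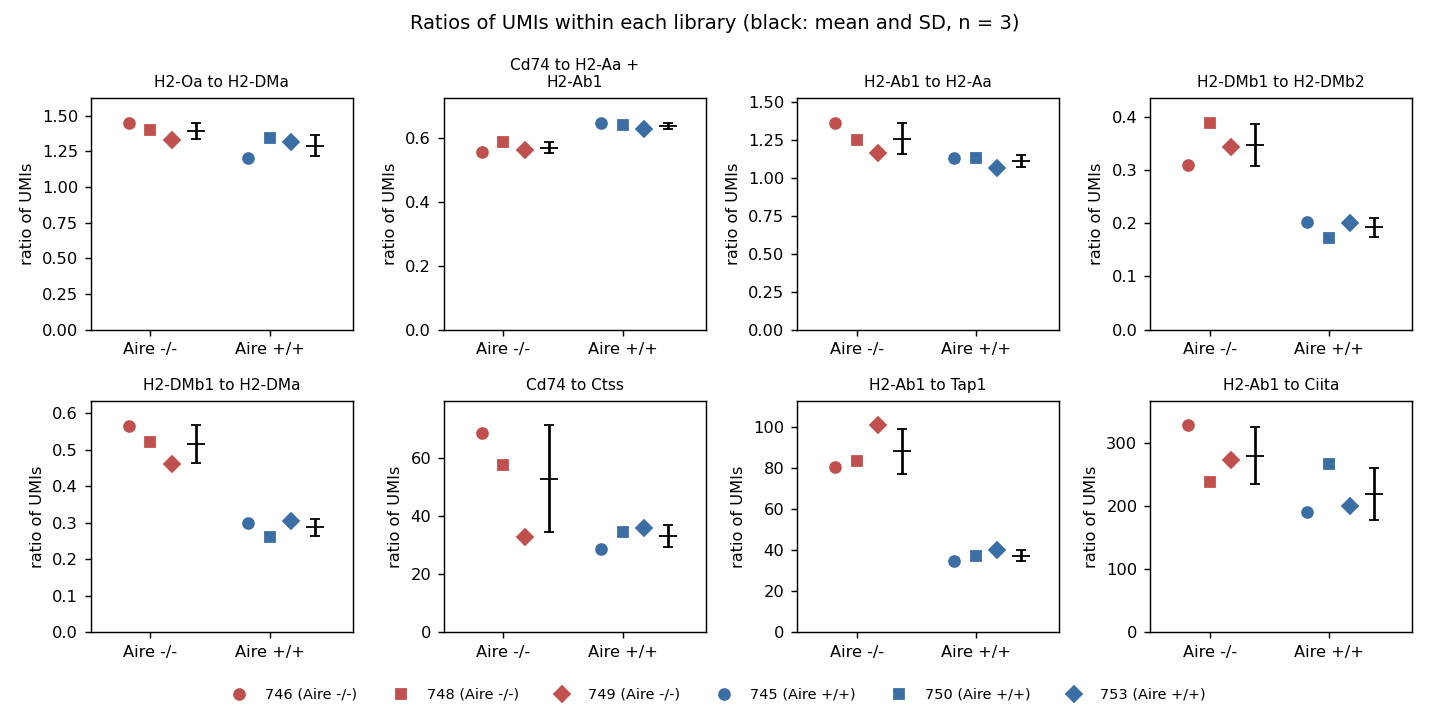
Each panel plots the UMIs of 1 gene divided by those of another gene, or of a pair of genes, within each library, with Aire -/- on the left, Aire +/+ on the right and black bars for the mean and SD of 3 libraries. H2-DMb1 lies higher per H2-DMa and per H2-DMb2 in the Aire -/- libraries, as do H2-Ab1 per Tap1 and per H2-Aa, Cd74 lies lower per I-A chain, and H2-Oa per H2-DMa, Cd74 per Ctss and H2-Ab1 per Ciita overlap.

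Ciita, the transactivator, was the least abundant of the 9, at 76.6, 90.01 and 90.6 CPM in Aire -/- cells, against 57.2, 45.6 and 65.0 CPM in Aire +/+ cells. These rest on 74 to 166 UMIs per Aire -/- library and 137 to 192 UMIs per Aire +/+ library. It rose by a log2 ratio of 0.62 ± 0.16 (SE; edgeR adjusted p = 0.0157). The call was lost without 748 (edgeR adjusted p = 0.0539), without 745 (0.0574), without 750 (0.0783) and with scaling by library totals (0.0882), at log2 ratios of 0.42 to 0.63. The 3′ part of Ciita, chr16:10502531-10528418 (GRCm38), overlaps Dexi on the opposite strand, and Dexi rose too (log2 ratio 0.83, edgeR adjusted p = 0.000655), so the levels of both are uncertain. H2-Ab1 per Ciita was 328, 239 and 273 in Aire -/- cells, against 190.4, 267 and 200.1 in Aire +/+ cells, which overlapped. Cd74 per Ctss overlapped as well, at 68.6, 57.6 and 32.7 in Aire -/- cells, against 28.8, 34.6 and 35.9 in Aire +/+ cells, and the difference of 0.62 on the log2 scale became 0.93 without 749 and 0.40 without 746. Both quotients were chosen after the values were seen.

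A 3′ UMI counts 1 tag per captured molecule, so the CPM of different genes were set beside each other without scaling by length. The limits given above for mapping to mm10, the H2-DM beta chains and Ciita apply, so the orders are of CPM only. In Aire -/- cells the order of mean CPM was Cd74 (24308), H2-Ab1 (23760), H2-Aa (18928), H2-Eb1 (11882), H2-Oa (866), H2-DMa (623), Ctss (513), H2-DMb1 (319) and Ciita (85.7). In Aire +/+ cells it was Cd74 (14595), H2-Ab1 (12017), H2-Aa (10859), H2-Eb1 (6507), H2-Oa (549), Ctss (442), H2-DMa (425), H2-DMb1 (122) and Ciita (55.9). The ranges of Cd74 and H2-Ab1 and of H2-DMa and Ctss overlapped in Aire -/- cells, and those of H2-Ab1 and H2-Aa and of Ctss and H2-DMa in Aire +/+ cells. All other neighbours in these orders were separate in the 3 libraries of the genotype.

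The other genes of the class II pathway moved less as a list. Of 27 symbols listed, older and newer names of a gene counted separately, 21 were in the table and 19 were tested. Of these 3 were called higher, 0 lower and 16 not, beside 8.59% higher and 12.1% lower over all genes. The median log2 ratio was 0.28, and at an unadjusted p under 0.05 edgeR had 6 higher and 0 lower and DESeq2 called 3 and 0. The 3 were H2-Eb2, a class II beta chain (0.75, edgeR adjusted p = 0.00132), H2-DMb2 (0.54, edgeR adjusted p = 0.0184), and Cd82, a tetraspanin of class II compartments (0.42, edgeR adjusted p = 0.0285). H2-Ob, the partner of H2-Oa, was at 62.1, 91.1 and 132 CPM in Aire -/- cells, against 55.2, 61.6 and 70.4 CPM in Aire +/+ cells, which overlapped and was not called (log2 ratio 0.63, edgeR adjusted p = 0.0608). The count of 3 became 1 without 745, without 750, without 753 or with library totals, and 5 without 746.

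The enzymes of the lysosome and the promoter-binding factors were among those not called. Ifi30, a thiol reductase that opens disulfide bonds of antigens, averaged 1238 CPM in Aire -/- cells and 1130 CPM in Aire +/+ cells (log2 ratio 0.13, edgeR adjusted p = 0.608). Ctsd, an aspartic protease, had a log2 ratio of 0.28 and Lgmn, an asparaginyl endopeptidase, one of 0.37 (edgeR adjusted p = 0.355 and 0.199). For the factors on the X box, Rfx5 had a log2 ratio of 0.27 and Rfxank of -0.29 (edgeR adjusted p = 0.407 and 0.649). For the Y box, Nfya, Nfyb and Nfyc had log2 ratios of 0.72, 0.06 and 0.07 (edgeR adjusted p = 0.0704, 0.926 and 0.852). Rfxap and Ctsl were below the filter on low counts.

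**Figure D3:**
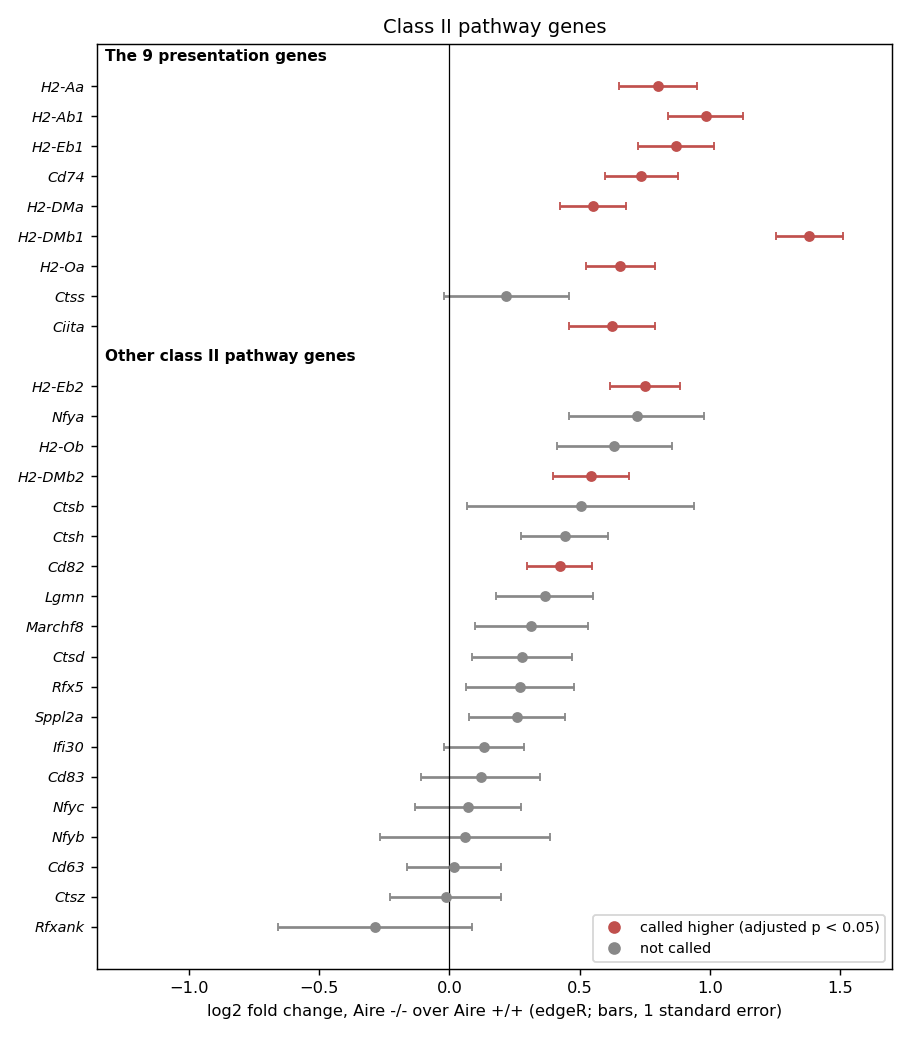
The plot gives the edgeR log2 ratio of Aire -/- over Aire +/+ on the horizontal axis, with bars of 1 standard error, for the 9 genes and the 19 other tested genes of the class II pathway. Red points were called higher, 8 among the 9 genes and 3 among the other 19, and grey points were not called.

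Among genes known to act on Ciita, more were called higher than lower. Of 15 tested genes of interferon gamma signalling, of factors that act on Ciita promoters and of mTEC maturation receptors, 7 were called higher, 2 lower and 6 not, beside 8.59% higher and 12.1% lower over all genes, so the count of lower genes was near the share of all genes. Irf8, a transcription factor of antigen-presenting cells, rose (1.06, edgeR adjusted p = 5.20e-05), as did Irf1, which acts on the interferon-inducible Ciita promoter (0.91, edgeR adjusted p = 0.000297), and Socs1, a feedback inhibitor of interferon signalling (0.95, edgeR adjusted p = 0.000625). Ifngr2, a chain of the interferon gamma receptor, fell (-0.43, edgeR adjusted p = 0.0378). It was at 162, 181 and 149.7 CPM in Aire -/- cells, against 209.9, 245 and 209.8 CPM in Aire +/+ cells. The other receptor chain, Ifngr1, rose (0.56, edgeR adjusted p = 0.0422). Its levels were 59.0, 45.0 and 41.3 CPM in Aire -/- cells, against 31.1, 34.6 and 31.1 CPM in Aire +/+ cells. Both chains were named after their values were seen. The count of 2 lower became 1 without any 1 of 746, 748, 745, 750 or 753, and the count of 7 higher became 4 without 746 and 753 together.

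The MHC class I pathway, which presents peptides of the cytosol to CD8 T cells, gives a comparison within the same libraries. Of 17 genes tested, 1 was called higher, 0 lower and 16 not, beside 8.59% higher and 12.1% lower over all genes. For 6 of the 17 the Aire -/- libraries lay wholly above the Aire +/+ libraries, beside 16.3% of all tested genes. For 2 they lay wholly below, beside 20.2%. The median log2 ratio was 0.16, and at an unadjusted p under 0.05 edgeR had 4 higher and 1 lower and DESeq2 called 2 and 0. The called gene was H2-K1, a classical class I heavy chain (0.56, edgeR adjusted p = 0.00863). H2-D1 (0.34, edgeR adjusted p = 0.0865) and Tap2, a subunit of the peptide transporter (0.35, edgeR adjusted p = 0.08), were not called. The 9 class II genes together held 3.53, 3.21 and 3.27 UMIs per UMI of the class I list in Aire -/- cells, against 1.95, 2.12 and 2.11 in Aire +/+ cells. Class II thus stood higher relative to class I in each Aire -/- library. The count of 1 became 0 without 746 and 753 together and 2 without 749.

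Class I and class II genes lie side by side on chromosome 17, where 6 of the 9 genes lie (GRCm38, GENCODE). H2-Oa is at chr17:34092340-34095234, H2-DMa at chr17:34119541-34139101 and H2-DMb1 at chr17:34153072-34160230. H2-Ab1 follows at chr17:34257689-34269419, H2-Aa at chr17:34282744-34287823 on the minus strand, and H2-Eb1 at chr17:34305867-34316674. Between H2-DMb1 and H2-Ob lie Psmb9, Tap1, Psmb8 and Tap2, of the immunoproteasome and the peptide transporter, and none of these 4 was called (log2 ratios of -0.13, -0.25, 0.09 and 0.35). H2-Ab1 per Tap1 was 80.6, 83.5 and 101 in Aire -/- cells, against 34.7, 37.0 and 40.1 in Aire +/+ cells, a difference of 1.24 on the log2 scale with no overlap, for a pair chosen after its values were seen and so given with no test. Beyond H2-Eb2, Btnl2, a butyrophilin-like gene, rose (1.08, edgeR adjusted p = 0.00311). Brd2, which overlaps the first part of H2-DMa on the other strand, was not called (0.37, edgeR adjusted p = 0.242).

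**Figure D4:**
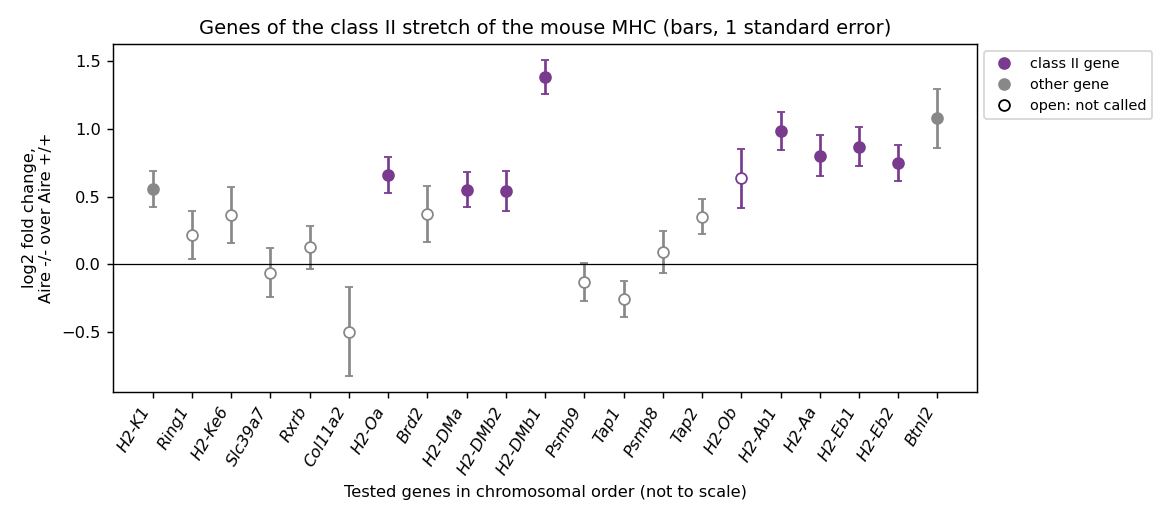
The plot gives the edgeR log2 ratio of Aire -/- over Aire +/+, with bars of 1 standard error, for the tested genes from H2-K1 to Btnl2 in their order on the chromosome. Purple points are genes of the class II pathway, which lie between 0.54 and 1.38, and open points were not called, among them Psmb9, Tap1, Psmb8 and Tap2 in the middle of the stretch.

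Markers of the sorted cells and of other cells were read in the same libraries. Epcam, a surface protein of epithelium, was at 321, 264 and 257 CPM in Aire -/- cells, against 257, 310.0 and 267 CPM in Aire +/+ cells. Fezf2, a regulator of mature medullary epithelium, was at 619, 713 and 699 CPM in Aire -/- cells, against 653, 838 and 755 CPM in Aire +/+ cells. The ranges of both genes overlapped, and neither was called. Cd80 and Cd86, costimulatory ligands of mature cells, rose (0.70, edgeR adjusted p = 0.0278, and 0.98, edgeR adjusted p = 0.0452), while Ly6d fell (-1.41, edgeR adjusted p = 9.21e-06). Of the whole list of 9 mature medullary markers, 2 were called higher, 1 lower and 6 not, with a median log2 ratio of -0.14. Over all genes 8.59% were called higher and 12.1% lower. The list summed to 3298 to 4627 CPM in Aire -/- cells, against 4721 to 5247 CPM in Aire +/+ cells. Of 6 tested class II-low medullary markers, 0 were called higher, 1 lower and 5 not (median log2 ratio -0.27). Krt5, a keratin of medullary epithelium, was lowest in 749, the library high in Ctss, at 1716, 1636 and 689.5 CPM in Aire -/- cells, against 1597, 1733 and 1442 CPM in Aire +/+ cells.

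Cortical thymic epithelium also carries class II, and its markers moved with the class II genes. All 6 listed were tested and called higher (8.59% of all genes were), with a median log2 ratio of 1.07 and none at 0 in any library. Their summed level was 1985 to 2053 CPM in Aire -/- cells, against 789.9 to 1073 CPM in Aire +/+ cells. Most of that sum was Tbata, at 1405, 1389 and 1457 CPM in Aire -/- cells, against 718, 602 and 716 CPM in Aire +/+ cells. Tbata (1.06, edgeR adjusted p = 8.00e-05), Ly75, an endocytic receptor (0.99, edgeR adjusted p = 0.00109), and Prss16, a thymus-specific serine protease (1.20, edgeR adjusted p = 0.00124), had the smallest p of the list. Psmb11, the least abundant of the list, rested on 13, 24 and 15 UMIs in Aire -/- cells and 21, 7 and 7 UMIs in Aire +/+ cells. The part of cortical cells in the class II levels was not tested.

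Professional antigen-presenting cells also make class II. The dendritic list, 8 of 10 in the table and none at 0, summed to 1999, 2029 and 4084 CPM in 746, 748 and 749, against 2955 to 3312 CPM in Aire +/+ cells. Most of that sum was Cst3, a protease inhibitor that many cell types make, at 1744, 1791 and 3720 CPM in Aire -/- cells, against 2783, 3106 and 3041 CPM in Aire +/+ cells. The other 7 markers summed to 256, 238 and 364 CPM in Aire -/- cells, against 172, 205 and 184 CPM in Aire +/+ cells, a sum formed after the values were seen. Without Cst3 every Aire -/- library thus lay above every Aire +/+ library. Batf3 was the largest of the 7, at 133.5, 111 and 189 CPM in Aire -/- cells. It was at 74.1, 84.2 and 78.5 CPM in Aire +/+ cells. Only Batf3 and Cd209a of the list were called. Of the dendritic list 2 of 8 tested were called higher, of the macrophage list 1 of 8, of the B cell list 1 of 6, and of the leukocyte list 3 of 6, beside 8.59% of all genes. The leukocyte sum was 3174 to 4519 CPM in Aire -/- cells, against 2558 to 2720 CPM in Aire +/+ cells, with Rac2 (1.39), Coro1a (0.55) and Cd52 (0.82) called.

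B cell markers summed to 122 to 237 CPM in Aire -/- cells, against 136 to 173 CPM in Aire +/+ cells, and thymocyte markers to 147 to 271 CPM in Aire -/- cells, against 145 to 242 CPM in Aire +/+ cells. Both pairs of ranges overlapped. Fibroblast markers summed to 626, 184 and 157 CPM in 746, 748 and 749, against 67.9 to 106 CPM in Aire +/+ cells, and were highest in 746. The part of dendritic cells, other leukocytes and fibroblasts in the class II levels was not tested.

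**Figure D5:**
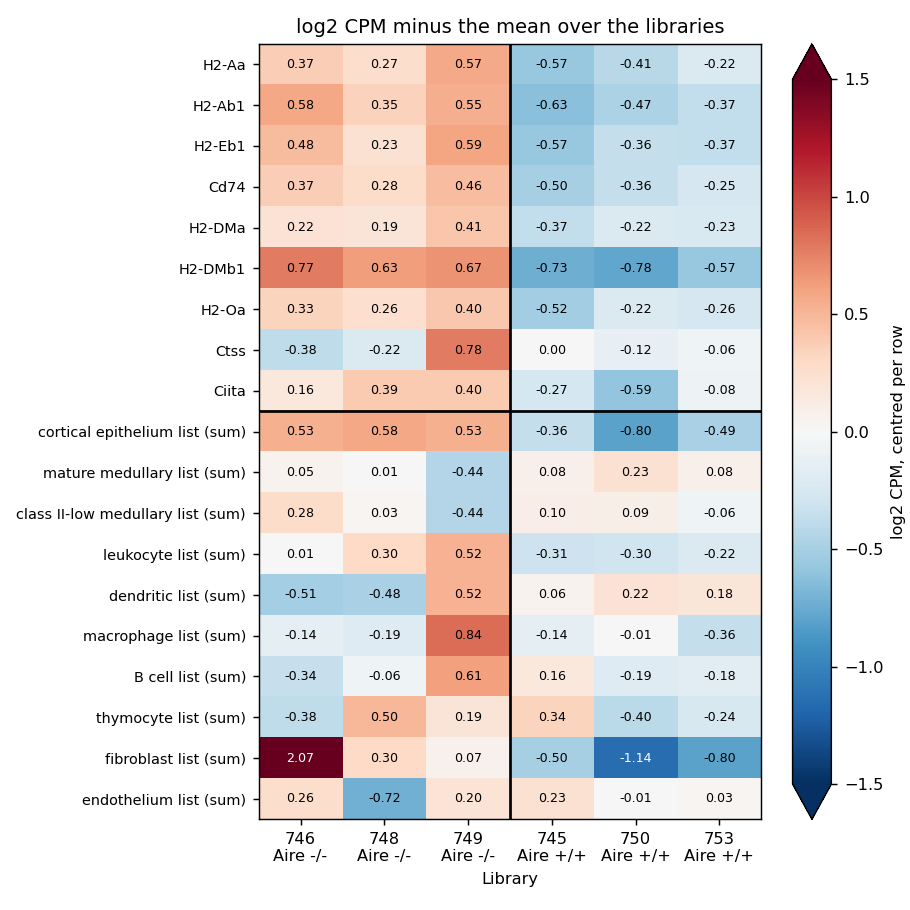
Each cell gives the log2 CPM of a gene, or of the summed CPM of a marker list, minus its mean over the 6 libraries, with the Aire -/- libraries in the 3 left columns. The class II genes other than Ctss and the cortical epithelium, leukocyte and fibroblast lists are above 0 in all 3 Aire -/- libraries and below 0 in all Aire +/+ libraries, Ctss and the macrophage list are highest in 749, and the fibroblast list is highest in 746.

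Across the 6 libraries the 4 abundant genes had profiles like those of a few genes outside the pathway. The measure was the Euclidean distance to the mean centred log2 profile of H2-Aa, H2-Ab1, H2-Eb1 and Cd74, among 3105 tested genes with a mean of at least 50 CPM. The nearest was Pip5k1b, a phosphoinositide kinase (0.144), followed by Adck1 (0.150), Hal, histidine ammonia-lyase (0.158), Ache, acetylcholinesterase (0.182), and Ubb, a polyubiquitin (0.186). Their log2 ratios ran from 0.82 to 0.93. With 6 libraries of 2 genotypes, a small distance says only that a gene differed between the genotypes by a like amount.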

How the data were processed

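Gene expression was read from 1 table of the whole series, with 6 MARS-seq libraries. The authors deposited raw UMI counts per gene symbol. The authors' normalized counts (a signal, counts divided by 1 factor per library) and regularized log2 values, per the file headers, were not used. The log2 fold changes and p-values of the authors' DESeq2 comparison, per the file headers, are Aire +/+ over Aire -/-, the reverse of all other fold changes here. STAR 2.4.2a, HTSeq, cutadapt, bcl2fastq and DESeq2, with the build mm10, appear in the submitters' processing notes without roles. No source used here gives the annotation, strand setting, UMI handling or treatment of reads matching several genes.

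Genotypes were compared with edgeR 4.0.16 in R 4.3.3 (glmQLFit, glmQLFTest) on all genes passing filterByExpr (min.count 10), with TMM scaling, genotype as the only term and Benjamini-Hochberg adjustment over the 11956 genes tested, with a threshold of 0.05. CPM are UMIs per 1000000 of the tested genes' total times the TMM factor. Standard errors were derived from each log2 ratio and its F statistic. Alternatives were DESeq2 1.42.0, other scalings and filters, and fits leaving libraries out. The fit was tested on simulated data. Ratios were compared by exact permutation, with 0.1 the smallest p for 3 against 3, adjusted over 8 ratios, of which 5 were chosen after seeing the data and are given without a p. The last 300 nt of coding transcripts were searched with blastn 2.17.0 (at least 80 nt and 90% identity). Positions are GENCODE vM21 (GRCm38). The library numbers differ between genotypes and pair none.

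Named genes were the 9, the rest of the class II list, up to 3 tested genes with the smallest p of each other list, neighbours on chromosome 17 and the 5 nearest profiles (unnamed gene models left out). Dexi, C1qa, Cst3, Epcam, Fezf2, Krt5, Psmb11, Ifngr1 and Ifngr2 were named after their values were seen. A gene of the list of genes acting on Ciita is not reported here by name. The genes and lists were chosen with earlier results of these data known.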

Additional observations from a re-analysis of the deposited data

How the results depend on the processing

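The count of 8 class II genes called higher stayed at 7 or 8 under all 13 alternatives, and none was called lower under any of them, while these called 4.69% to 8.8% of all genes higher. Of the 117 values of single genes, 111 kept direction and side of the threshold. Those that did not were Ciita with library totals (0.42) and without 748, 745 or 750 (leave-one-out range 0.49 to 0.74), and Ctss, which was -0.00014 with library totals and -0.23 without 749 (leave-one-out range -0.23 to 0.43, edgeR adjusted p over the 13 alternatives 0.185 to 0.9999). Scaling by library totals moved the median of all genes to -0.23, gave 561 genes higher and 2083 lower, and left 1 other class II gene higher and 2 class I genes lower. Without 746 and 753 together, 651 genes were higher, as were 0 class I genes. Of the Ciita regulation list, 4 were then higher and 1 lower. DESeq2 called 1 gene of the Ciita regulation list lower and 2 class I genes higher. Leaving out 1 library gave 618 to 1156 genes higher and 1 to 5 other class II genes higher. It gave 1 to 2 genes of the Ciita regulation list lower, 1 to 2 class I genes higher and 0 to 1 lower. With the 100 most abundant other genes left out of the totals, the difference in the share of UMIs was 4.06 percentage points, against 2.70, by construction of the smaller total. The difference in H2-Oa to H2-DMa was 0.065 without 745, and that in H2-Ab1 to H2-Aa 0.09 without 746 and 753 together. For the other changes the cause was not tested. No paired analysis was possible because the library numbers differ between genotypes. Ciita rests on 74 to 192 UMIs per library, the fewest of the 9 genes.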
